A study of Mus musculus with 6 samples.

Results

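The genes described here encode mitochondrial ribosomal proteins. They were taken as every row of the count table whose gene symbol begins with Mrpl or Mrps followed by a number, which gave 59 of 11779 genes, all protein-coding. Levels were compared in sorted long-term hematopoietic stem cells, rare marrow cells from which the blood lineages are renewed, from female mice aged 8 weeks. The HET group (n = 3 libraries) has the genotype c-Mycfl/+Mx1Cre, in which one allele of Myc is floxed and Cre recombinase is driven by the interferon-responsive Mx1 promoter. The WT group (n = 3) has the genotype c-Mycfl/+, the same floxed allele without Cre, so both groups carry it. To switch Cre on, poly(I:C), a double-stranded RNA analog, was injected 3 times at 6 mg/kg. Whether WT mice were injected is not stated separately. The cells were sorted as lacking lineage markers and CD48 while carrying Sca-1, c-Kit and CD150. Mx1-Cre is not restricted to stem cells, and the labels do not say whether a library came from one mouse or from pooled mice, so p-values measure the spread between these libraries. Titles call the HET libraries KO, whereas the genotype label followed here is heterozygous. Libraries are numbered 1, 3 and 4 in each group.

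Mitochondrial ribosomes translate the few messenger RNAs encoded by the mitochondrial genome, all of which specify subunits of the respiratory chain and ATP synthase. Their proteins are encoded in the nucleus, made in the cytosol and imported, and they assemble with mitochondrial ribosomal RNAs into a small subunit that decodes the message and a large subunit that forms peptide bonds. Some descend from bacterial ribosomal proteins, and others have no bacterial counterpart. MYC, in cultured cells, is known to promote ribosome production and mitochondrial biogenesis, and adult stem cells are known for low protein synthesis.

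Total counts were 9886223, 4627452 and 5054028 in HET 1, 3 and 4, against 5512100, 5600856 and 4249490 in WT 1, 3 and 4, so HET 1 was sequenced most deeply. All 9 stem cell markers checked (among them Slamf1, Kit, Procr and Hlf) had counts, with a summed level of 2450 to 2890 CPM (read counts scaled to a common library size) in HET and 2610 to 2900 CPM in WT. Cd48, which the sort excludes, measured 3.67 to 8.96 CPM in HET and 1.67 to 3.25 CPM in WT. Among genes listed as markers of other marrow cells, 5 megakaryocyte genes summed to 421 to 712 CPM in HET and 302 to 397 CPM in WT. Another 7, neutrophil genes, were present in every library. Whether these transcripts came from other cells or from the stem cells themselves was not tested. The highest megakaryocyte sum was that of HET 1. The markers of erythroid, B and T cells with a row in the table (2 of 6, 2 of 5 and 1 of 4) each summed to at most 20.3 CPM in HET and 23.4 CPM in WT, and monocyte markers to 149 to 163 CPM in HET and 136 to 186 CPM in WT. None of the marker genes passed the test described below, and their part in the values of the ribosomal protein genes was not tested. In bulk libraries, fewer cells of a type and less RNA per cell cannot be told apart.

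Myc, the targeted gene, measured 293.8, 386.7 and 372.0 CPM in HET 1, 3 and 4, against 447.4, 427.4 and 541.8 CPM in WT 1, 3 and 4. The groups did not overlap, HET being the lower. By edgeR's quasi-likelihood test the HET level was 74.2% of the WT level, a log2 fold change of -0.43 with a 95% interval of -0.69 to -0.17. The p adjusted over all 10869 genes tested was 0.312, and the exact two-sided permutation test gave p = 0.1, the smallest that 3 against 3 libraries allow.

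No mitochondrial ribosomal protein gene was called different between HET and WT. Of the 58 members with enough counts to be tested, 0 rose, 0 fell and 58 did not pass an adjusted p of 0.05 in edgeR, whereas 28 of all 10869 genes tested did (0.258%), 4 higher in HET (0.0368%) and 24 lower (0.221%). At an unadjusted p under 0.05 there were 2 members, both higher in HET, against 5.22% of all genes (2.02% higher and 3.19% lower). That split did not hold in every fit: limma-voom gave 1 higher and 2 lower, as did the fits without HET 1 and without WT 1, and the fits without HET 3 and without WT 3 gave 0 higher and 1 lower. After adjustment 0 members were called in each of these fits, and DESeq2 also called 0. The median log2 fold change of the members was -0.01, with 27 positive and 31 negative values between -0.51 and 0.56, and the median over all genes tested was 0.00. The quartiles were -0.17 and 0.15 for the members, and -0.15 and 0.15 for all genes. In 5 tested members (8.62%) all 3 HET libraries lay above all 3 WT libraries, which 4.69% of all genes showed. In 0 members all HET libraries lay below all WT libraries, which 5.64% of all genes showed.

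The precision of single members set how much of a change could have been seen. Standard errors of the log2 fold change ran from 0.16 to 0.76 with a median of 0.23, which was close to the median of 0.22 over all genes. The 95% interval lay wholly within a 2-fold change in either direction for 51 of the 58 members (87.9%, and 75.3% of all genes), and wholly within a 1.5-fold change for 23 (39.7%, and 45.0% of all genes). In 22 members (37.9%, and 48.6% of all genes) the whole interval lay above -0.43, the fold change of Myc. Members whose interval was not wholly within a 1.5-fold change could have differed by that much in at least one direction, and how much of the intervals' width comes from depth was not tested.

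**Figure D1:**
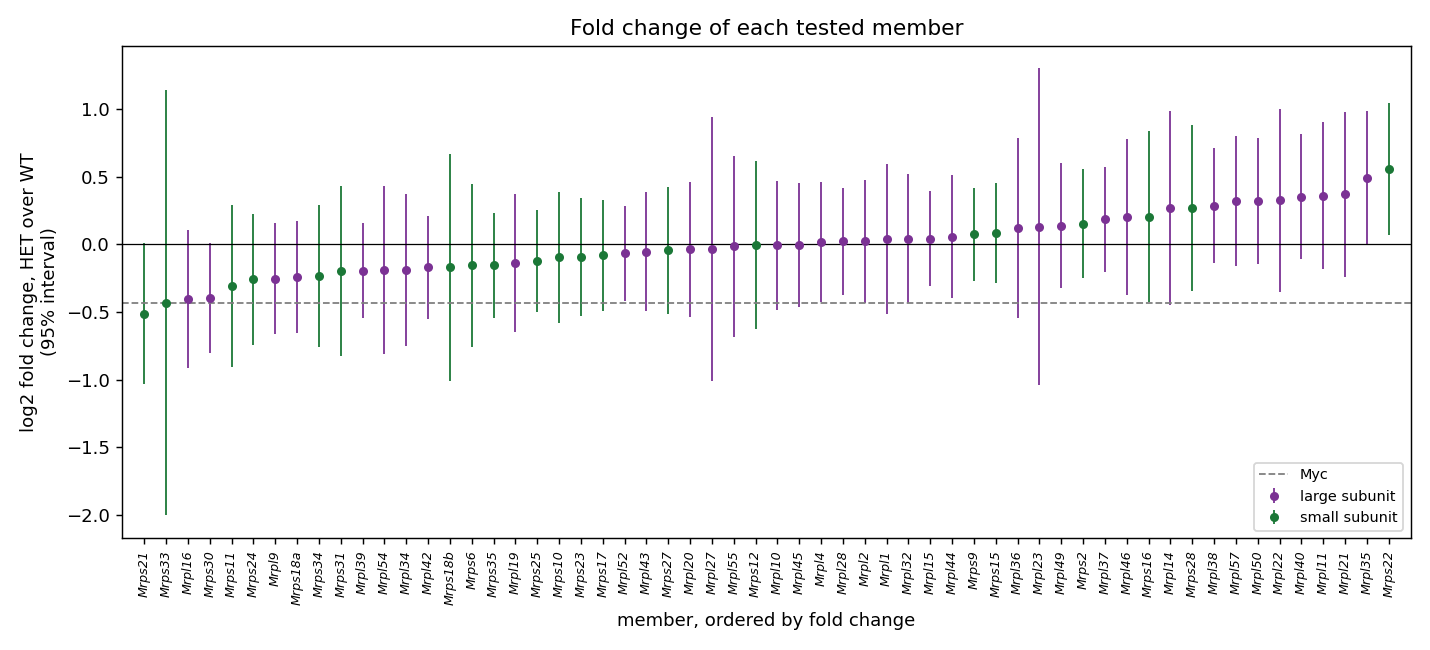
Log2 fold change of HET over WT for the 58 tested members, ordered by value, with 95% intervals from edgeR. Purple marks large subunit proteins, green small subunit proteins, the dashed line the value of Myc (-0.43). The estimates run from -0.51 for Mrps21 to 0.56 for Mrps22, and 56 of the 58 intervals include 0.

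**Figure D2:**
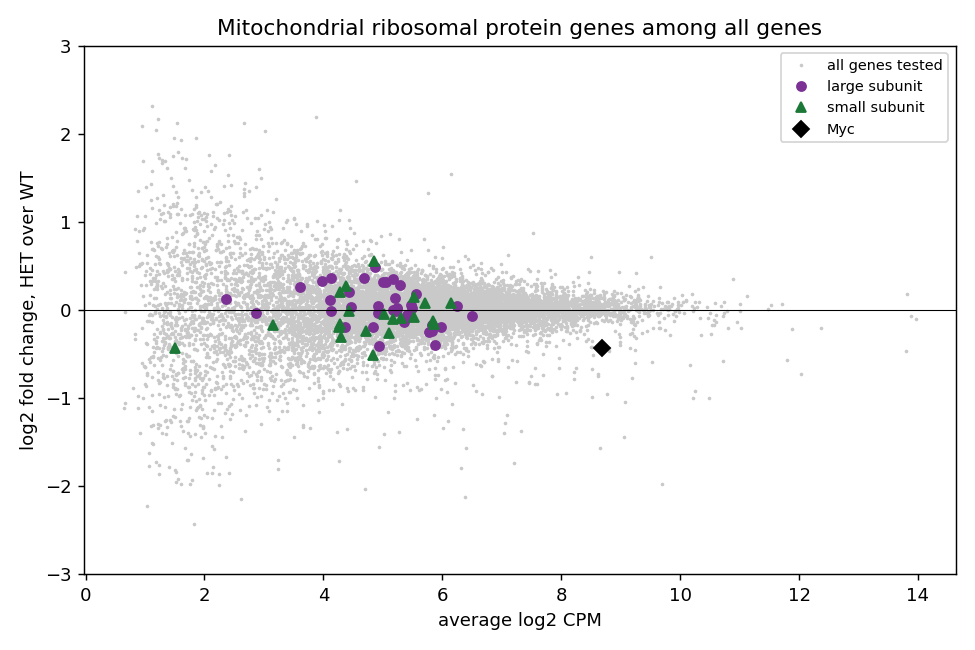
Log2 fold change of HET over WT against the average log2 CPM of every gene tested (grey), with large subunit members as purple circles, small subunit members as green triangles and Myc as a black diamond. The members lie around 0, within the cloud of genes of like level. The vertical axis ends at 3 in either direction and 4 genes lie beyond it.

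The member with the smallest p was Mrps22, which encodes a mitochondria-specific protein of the small subunit (mS22), mutated in humans with a respiratory chain disorder (ENSMUSG00000032459; GRCm38 chromosome 9, 98588730 to 98601660, minus strand). It measured 30.5, 35.3 and 35.7 CPM in HET 1, 3 and 4, against 27.1, 20.7 and 20.99 CPM in WT 1, 3 and 4. All HET libraries were above all WT libraries, and HET 1 was nearest to WT 1. The log2 fold change was 0.56 ± 0.23 (SE), with an unadjusted p of 0.0274 and an adjusted p of 0.844 in edgeR. Mrpl35, a large subunit protein with a bacterial counterpart (bL35m; chromosome 6, 71812997 to 71826969, minus strand), measured 33.4, 40.1 and 27.3 CPM in HET and 23.1, 22.3 and 26.2 CPM in WT. The groups did not overlap, but HET 4 lay just above WT 4. Its log2 fold change was 0.49 ± 0.24 (SE; unadjusted p = 0.0499, adjusted p = 0.950 in edgeR).

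On the lower side stood Mrps21, which encodes a small subunit protein of bacterial descent (bS21m; chromosome 3, 95862634 to 95871519, minus strand). It measured 22.8, 26.8 and 20.1 CPM in HET 1, 3 and 4, against 24.9, 41.0 and 33.4 CPM in WT 1, 3 and 4. HET 3 lay above WT 1, so the groups overlapped. The log2 fold change was -0.51 ± 0.25 (SE; unadjusted p = 0.0532, adjusted p = 0.950 in edgeR). Mrps30 measured 61.2, 44.9 and 45.2 CPM in HET and 58.1, 59.8 and 82.8 CPM in WT, a log2 fold change of -0.40 ± 0.19 (standard error; adjusted p = 0.950 in edgeR). HET 1 was above WT 1 and WT 3, and the other two HET libraries were below all of WT. Despite its symbol, its product is a large subunit protein (mL65).

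The regulatory sequence of these genes was examined because MYC, the product of the targeted gene, binds the E-box CACGTG. RefSeq promoter windows, 250 bases before to 50 after the annotated start on GRCm38.p6, were matched by symbol for 51 of the 59 members, giving 54 windows. The E-box was in 6 windows (11.1%) of 4 members, against 9.99% of the windows of all genes in the table and 7.15% of all 32851 windows. It reads the same on both strands. The 4 members with it are shown, with the E-box in capitals. In Mrpl37 it begins 162 bases before the start (chr4:107066817-107067116, minus strand), in Mrpl2 131 bases before the start in the first of 3 overlapping windows (chr17:46645971-46646270, plus strand), in Mrpl20 33 bases before (chr4:155802628-155802927, plus strand) and in Mrpl36 43 bases before (chr13:73330759-73331058, plus strand). The 3 windows of Mrpl2 hold the same site. Whether any of these sites lies within a repeat was not examined. The Mrpl36 window lies inside the gene as positioned by GENCODE, which begins it at 73328513, so the annotated starts differ.
Mrpl37: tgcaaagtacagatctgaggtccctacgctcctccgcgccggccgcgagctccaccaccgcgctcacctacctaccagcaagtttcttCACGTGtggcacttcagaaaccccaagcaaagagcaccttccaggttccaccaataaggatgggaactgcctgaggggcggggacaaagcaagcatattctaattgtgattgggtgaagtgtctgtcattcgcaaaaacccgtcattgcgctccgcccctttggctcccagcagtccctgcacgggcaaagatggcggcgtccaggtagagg
Mrpl2: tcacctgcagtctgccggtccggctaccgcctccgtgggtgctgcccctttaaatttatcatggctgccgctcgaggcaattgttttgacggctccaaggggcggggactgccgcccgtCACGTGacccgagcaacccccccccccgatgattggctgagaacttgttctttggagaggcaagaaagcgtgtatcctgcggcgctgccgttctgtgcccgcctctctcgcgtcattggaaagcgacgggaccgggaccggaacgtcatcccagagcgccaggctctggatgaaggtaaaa
Mrpl20: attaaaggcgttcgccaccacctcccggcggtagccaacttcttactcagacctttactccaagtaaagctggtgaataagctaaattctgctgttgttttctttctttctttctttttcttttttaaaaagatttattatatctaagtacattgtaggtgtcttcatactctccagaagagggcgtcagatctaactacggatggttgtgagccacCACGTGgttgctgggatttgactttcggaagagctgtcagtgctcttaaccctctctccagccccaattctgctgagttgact
Mrpl36: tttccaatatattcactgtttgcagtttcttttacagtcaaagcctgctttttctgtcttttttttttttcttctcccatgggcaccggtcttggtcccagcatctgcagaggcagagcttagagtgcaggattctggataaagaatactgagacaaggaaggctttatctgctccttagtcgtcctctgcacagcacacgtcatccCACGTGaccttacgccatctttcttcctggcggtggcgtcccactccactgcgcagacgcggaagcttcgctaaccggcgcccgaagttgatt

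None of these 4 genes passed the test. Mrpl37, a mitochondria-specific large subunit protein (mL37), measured 52.0, 44.1 and 53.0 CPM in HET 1, 3 and 4, against 44.0, 43.4 and 43.6 CPM in WT 1, 3 and 4. The groups did not overlap, although HET 3 was nearly equal to WT 1, and the log2 fold change was 0.19 ± 0.19 (SE; adjusted p = 0.995 in edgeR). Mrpl2, next to the peptidyl transferase centre in the bacterial ribosome, measured 39.9, 29.4 and 44.0 CPM in HET and 32.1, 37.0 and 42.9 CPM in WT. For Mrpl20 the values were 28.4, 26.0 and 34.1 CPM in HET and 33.0, 34.8 and 22.7 CPM in WT. Mrpl36 measured 22.3, 16.6 and 13.6 CPM in HET and 19.1, 19.0 and 10.3 CPM in WT. The HET and WT libraries of these last 3 genes overlapped, and their log2 fold changes were 0.02 ± 0.22 for Mrpl2, -0.04 ± 0.24 for Mrpl20 and 0.12 ± 0.32 for Mrpl36 (SE).

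A second string, CCGGAA, the core bound by ETS factors such as GABP, a known regulator of nuclear genes for mitochondrial proteins, was searched on both strands. It was in 31 member windows (57.4%), against 26.7% of the windows of all genes in the table and 14.9% of all windows. The longer CCGGAAGT, which contains it, was in 9.26% of member windows and 7.82% of those of all genes in the table. The string GCGCATGC, part of the site of the factor NRF1, was in 11.1% of member windows and 5.12% of those of all genes in the table. These 4 strings were picked for display out of 7 listed here and a longer NRF1 site, all counted, after their shares were seen, and a match is not evidence of binding. The remaining 3 were CACGCG (16.7% of member windows, 17.0% of those of all genes in the table), CGGAAG (51.9% and 30.0%) and CATGCGCA (9.26% and 3.73%). The 28 members with CCGGAA had a median log2 fold change of -0.01, with 13 positive and 15 negative values. Mrps22, at the upper end of the members' fold changes, has the string at 2 places in the window chr9:98601630-98601929 (minus strand), beginning 11 bases before and 8 bases after the start, in capitals.
Mrps22: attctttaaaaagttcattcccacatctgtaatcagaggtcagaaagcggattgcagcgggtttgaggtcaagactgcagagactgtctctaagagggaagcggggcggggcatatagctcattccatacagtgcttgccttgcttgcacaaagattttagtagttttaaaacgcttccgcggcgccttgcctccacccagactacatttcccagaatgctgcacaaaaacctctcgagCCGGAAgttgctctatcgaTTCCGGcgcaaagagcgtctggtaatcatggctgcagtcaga

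Large subunit members, 37 in all when Mrps30 and Mrps18a are counted by their place in the ribosome, had a median log2 fold change of 0.02, with 21 positive and 16 negative values. Among them 21 were classed as having bacterial counterparts (median 0.02) and 16 as specific to mitochondria (median 0.03). The classes follow the protein names, so Mrps18a (mL66) is in the second although it is related to a bacterial protein. Mrpl21, a protein of bacterial descent (bL21m), measured 17.5, 18.1 and 22.2 CPM in HET 1, 3 and 4, against 11.9, 16.1 and 16.7 CPM in WT 1, 3 and 4. Its HET libraries all lay above its WT libraries, with a log2 fold change of 0.37 ± 0.29 (standard error; adjusted p = 0.995 in edgeR). Its exons overlap those of Ighmbp2 in the annotation, and whether reads were counted by strand is unknown. Mrpl50, specific to mitochondria (mL50), measured 44.6, 30.7 and 33.5 CPM in HET and 28.5, 30.7 and 28.1 CPM in WT. The groups touched at HET 3 and WT 3, with a log2 fold change of 0.32 ± 0.22 (standard error; adjusted p = 0.995 in edgeR). Mrpl16, of bacterial descent (uL16m), measured 33.7, 19.6 and 24.6 CPM in HET and 33.0, 30.2 and 41.0 CPM in WT. HET 1 lay among the WT libraries, and the log2 fold change was -0.40 ± 0.25 (SE; adjusted p = 0.987 in edgeR). Mrpl9, also of bacterial descent (bL9m), measured 52.0, 38.4 and 58.5 CPM in HET and 68.4, 50.7 and 58.7 CPM in WT, with overlapping libraries and a log2 fold change of -0.25 ± 0.20 (SE).

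Proteins of the stalk, where translation factors bind, were Mrpl10, Mrpl11 and Mrpl54, with log2 fold changes of -0.01, 0.36 and -0.19. Mrpl11 measured 27.8, 26.0 and 31.4 CPM in HET 1, 3 and 4, against 17.0, 20.5 and 29.1 CPM in WT 1, 3 and 4, WT 4 lying among the HET libraries. Mrpl54 was spread widely, at 36.8, 14.8 and 26.7 CPM in HET and 21.7, 32.9 and 36.0 CPM in WT. To the central protuberance, the crown that faces the small subunit, 4 members were assigned here from background knowledge. Their values were 0.35 for Mrpl40, 0.29 for Mrpl38, 0.20 for Mrpl46 and -0.03 for Mrpl27. The lists for the stalk, this crown and the exit tunnel may be incomplete, so they do not describe each site as a whole. Mrpl40 measured 50.3, 33.2 and 36.4 CPM in HET and 35.2, 30.6 and 28.6 CPM in WT, with HET 1 standing above the rest and HET 3 below WT 1 (edgeR adjusted p = 0.995). Around the exit tunnel, through which the new chain leaves, Mrpl22, Mrpl23, Mrpl44 and Mrpl45 had 0.33, 0.13, 0.06 and 0.00. Mrpl45, which anchors the ribosome at the inner membrane, measured 40.7, 26.2 and 39.2 CPM in HET and 33.6, 35.9 and 37.4 CPM in WT. HET 3 was its lowest library and HET 1 its highest, so both ends of the range were HET.

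For the 21 small subunit members the median log2 fold change was -0.10, with 6 positive and 15 negative values, and whether they differ from the large subunit members was not tested. The 12 classed as having bacterial counterparts had a median of -0.04. The 9 classed by name as specific to mitochondria, Mrps18b (mS40) among them, had a median of -0.15, where Mrps22 was the one positive value. Mrps12, a protein of the decoding centre, measured 17.7, 21.6 and 24.4 CPM in HET 1, 3 and 4, against 13.2, 28.5 and 21.9 CPM in WT 1, 3 and 4. The WT libraries spanned the HET libraries, and the log2 fold change was -0.01 ± 0.30 (SE). Summed counts of large over small subunit members gave ratios of 2.03, 1.96 and 1.90 in HET 1, 3 and 4, against 1.92, 1.89 and 1.91 in WT 1, 3 and 4. HET 4 lay among the WT libraries in this ratio.

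The symbols Mrps18a and Mrps18b belong to paralogs of one bacterial protein, S18, with different places in the ribosome: the product of Mrps18a sits in the large subunit (mL66) and that of Mrps18b in the small subunit (mS40). Mrps18a measured 59.7, 49.5 and 45.0 CPM in HET 1, 3 and 4, against 47.8, 76.7 and 58.4 CPM in WT 1, 3 and 4. Mrps18b measured 7.34, 6.76 and 10.3 CPM in HET and 7.76, 8.78 and 10.97 CPM in WT. Both overlapped between the groups, with log2 fold changes of -0.24 ± 0.20 and -0.17 ± 0.40 (SE). Per kb of exon the level of Mrps18a was 13.9 ± 2.04 CPM in HET and 16.5 ± 3.95 CPM in WT, and that of Mrps18b was 3.90 ± 0.92 CPM in HET and 4.39 ± 0.79 CPM in WT (SD, n = 3 each).

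Mrps36 was the one member that could not be tested, since its counts were too few. It had 10, 5 and 4 counts in HET 1, 3 and 4, against 1, 3 and 0 counts in WT 1, 3 and 4, or 0.99, 1.09 and 0.78 CPM in HET and 0.18, 0.55 and 0.00 CPM in WT. The HET libraries were all above the WT libraries. The table holds no gene whose second-highest library is under 1.012 CPM before scaling, and this gene meets that level only through HET libraries, so a higher level in HET was a condition of its being listed. Its product, also called KGD4, belongs to the 2-oxoglutarate dehydrogenase complex of the citric acid cycle rather than to the ribosome. The annotation names 3 pseudogenes of it, so its few reads are uncertain.

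**Figure D3:**
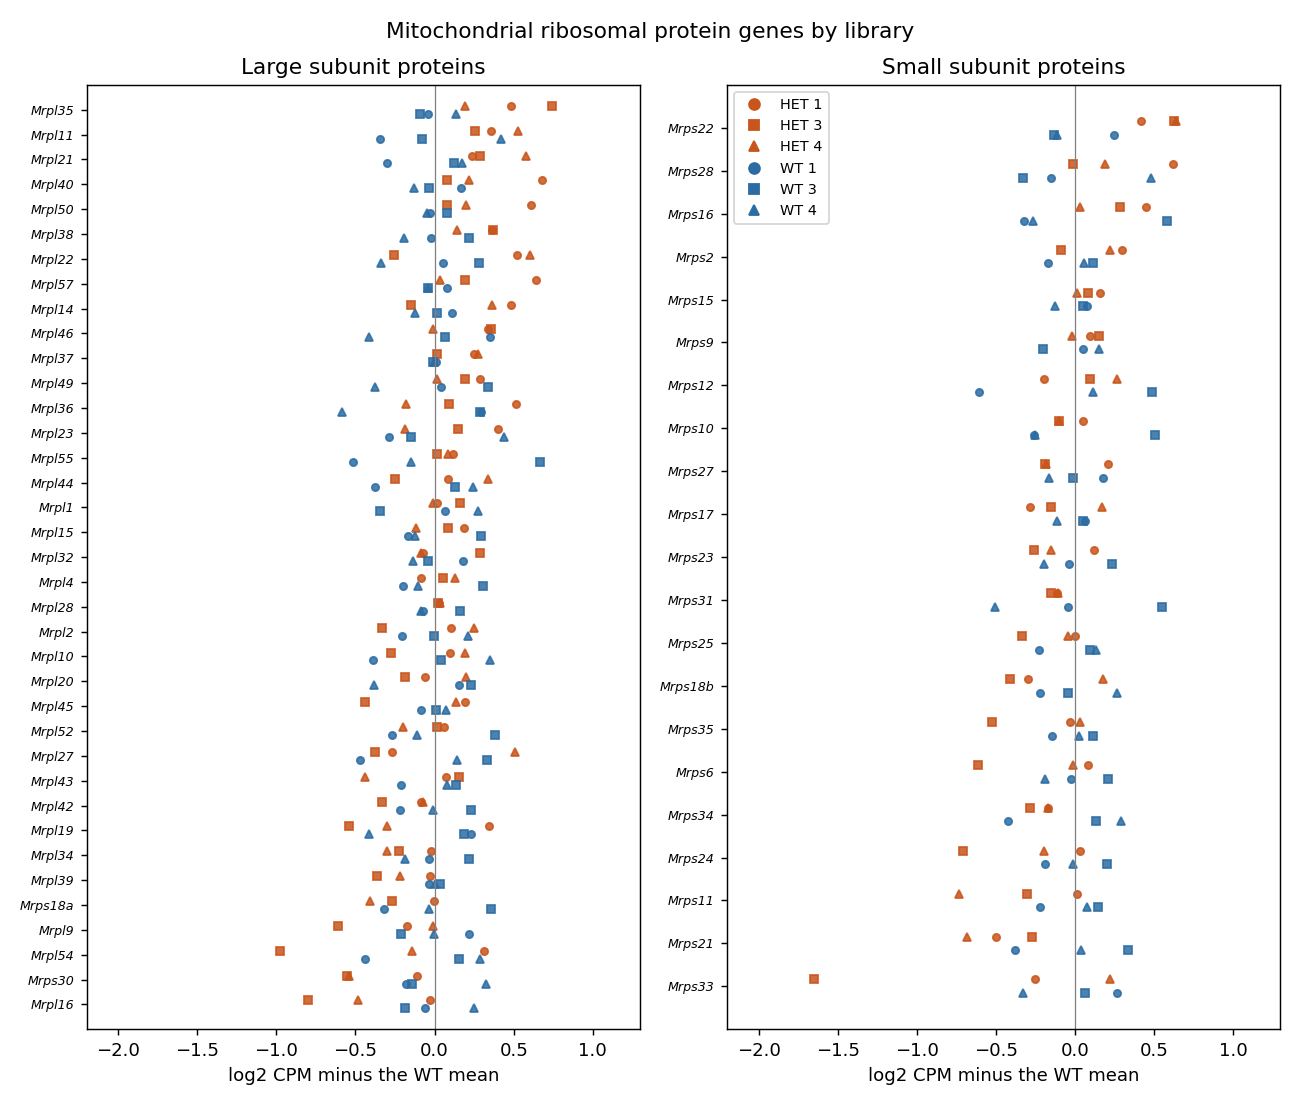
Log2 CPM of each library minus the mean of the WT libraries for the 58 tested members, HET in orange above WT in blue within each row, large subunit proteins on the left and small subunit proteins on the right, ordered by the mean of HET. Symbols mark library numbers. HET and WT points intermix in most rows, and the farthest point is that of HET 3 for Mrps33, a gene with 3 counts in that library.

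Levels differed far more between members than between groups. Per kb of exon, Mrpl52, a mitochondria-specific large subunit protein (mL52), had the highest level, at 79.1 ± 7.43 CPM in HET and 82.8 ± 20.5 CPM in WT (SD, n = 3 each). It measured 93.8, 90.9 and 78.3 CPM before scaling by length in HET 1, 3 and 4, against 74.7, 118 and 83.2 CPM in WT 1, 3 and 4, with overlapping libraries and a log2 fold change of -0.07 ± 0.17 (SE). Next per kb of exon came Mrps21 with 31.4 ± 4.60 CPM in HET and 44.8 ± 10.9 CPM in WT, and Mrpl54 with 31.7 ± 13.3 CPM in HET and 36.6 ± 9.17 CPM in WT. Mrpl34 had 31.2 ± 3.24 CPM per kb in HET and 35.6 ± 5.22 in WT, and Mrpl28 had 32.7 ± 0.17 in HET and 32.2 ± 3.22 in WT. In HET the means of these last 4 were between 31.2 and 32.7 CPM per kb. They lay closer together than the spread of Mrps21, Mrpl54 or Mrpl34. In WT the mean of Mrps21 was beyond the spread of Mrpl34 and Mrpl28. The SD of Mrps21 in WT, 10.9, was the widest of the 4 and reached the mean of Mrpl34, so Mrps21 was not clearly set apart. Mrpl28 was the steadiest member in HET, with 45.1, 44.9 and 45.4 CPM in HET and 42.0, 49.6 and 41.7 CPM in WT.

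The lowest levels per kb of exon, Mrps36 apart, were those of Mrpl23 (1.02 ± 0.22 CPM in HET and 0.94 ± 0.29 CPM in WT) and Mrps33 (1.25 ± 0.80 CPM in HET and 1.70 ± 0.39 CPM in WT; SD, n = 3 each). Mrps33, a mitochondria-specific small subunit protein, had 23, 3 and 17 counts in HET 1, 3 and 4, against 19, 16 and 9 counts in WT 1, 3 and 4. Its standard error of 0.76 was the largest among the members. Mrpl23, with 61, 23 and 20 counts in HET and 20, 22 and 26 counts in WT, has 1 named pseudogene. The order rests on the exonic length, taken over all annotated transcripts. With the length of the principal transcript, Mrpl52 stayed first, Mrps21 was the fourth and Mrps18a moved to rank 3 from rank 26, and 2 of the 5 highest members were shared.

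**Figure D4:**
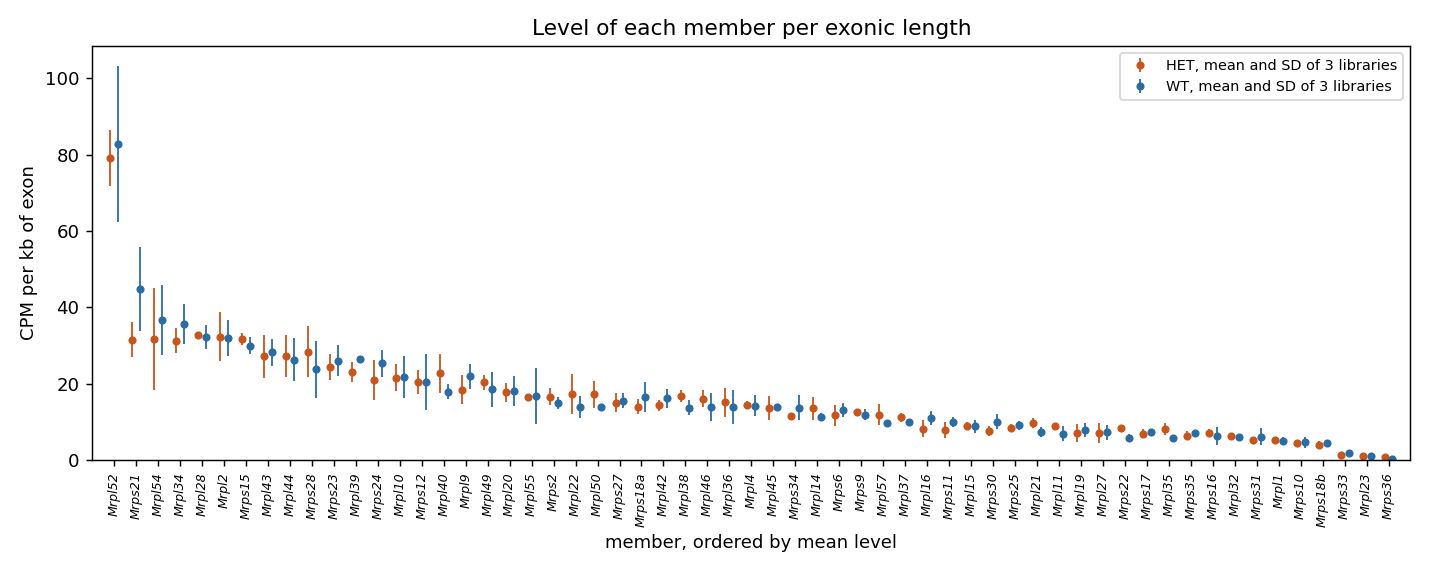
Level of each of the 59 members in CPM per kb of exon, HET in orange left of WT in blue, with the mean and SD of 3 libraries each, ordered by the mean over all libraries. Mrpl52 stands above the others, and Mrpl23, Mrps33 and Mrps36 form the low end in both groups.

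Taken as shares of all counts, the members held 0.221%, 0.182% and 0.200% in HET 1, 3 and 4, against 0.188%, 0.213% and 0.196% in WT 1, 3 and 4. The mean log2 level over the 58 tested members, relative to the WT mean, was 0.13, -0.14 and 0.02 in HET 1, 3 and 4, against -0.10, 0.12 and -0.02 in WT 1, 3 and 4. HET 1 and WT 3 were the high libraries and HET 3 the low one, so the HET libraries spanned the WT libraries at both ends. The summed level of the 7 neutrophil markers was highest in the same 2 libraries, but its lowest was in WT 4 and not in HET 3. It was 390, 125 and 156 CPM in HET 1, 3 and 4, against 208, 512 and 57.5 CPM in WT 1, 3 and 4. Its part in the levels of the members was not tested. Nuclear-encoded subunits of the respiratory chain and ATP synthase (68 genes) had their highest levels in the same 2 libraries and their lowest in HET 3: 0.10, -0.30 and -0.10 in HET 1, 3 and 4, against -0.05, 0.09 and -0.04 in WT 1, 3 and 4. Of their 66 tested genes 0 passed in edgeR, 3 had an unadjusted p under 0.05, all lower in HET (3.19% of all genes were lower at that p), and the median log2 fold change was -0.08. Member by member, the coefficient of variation between libraries had a median of 15.7% in HET and 16.8% in WT, against 16.2% in HET and 15.5% in WT over all genes tested.

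Cytosolic ribosomal proteins, which build the ribosomes outside mitochondria, gave different values in the same libraries. Of 72 tested genes 0 passed in edgeR, but 24 had an unadjusted p under 0.05, all lower in HET (3.19% of all genes), and in 22 (30.6%) the HET libraries were all lower than the WT libraries (5.64% of all genes), where the mitochondrial members had 0 of each. Their median log2 fold change was -0.24. The mean log2 level of the list, relative to the WT mean, was -0.25, -0.24 and -0.27 in HET 1, 3 and 4. In WT 1, 3 and 4 it was -0.16, 0.11 and 0.05, so WT 1 lay nearest to HET. All genes of the list were measured in the same libraries, so the 24 and 22 genes are not independent results. Counts of the cytosolic genes over those of the mitochondrial members came to 7.39, 9.18 and 8.00 in HET 1, 3 and 4, against 9.44, 9.48 and 9.73 in WT 1, 3 and 4. The HET libraries lay below the WT libraries in this ratio, HET 3 closest, and HET 1, where the mitochondrial members were highest, farthest. The difference between the gene lists itself was not tested. Pseudogenes of cytosolic ribosomal protein genes are many, and how reads shared with them were assigned is unknown.

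Other nuclear genes for mitochondrial gene expression were likewise not called. Over 76 tested genes in 5 lists, 0 rose, 0 fell and 76 did not pass in edgeR, where 0.258% of all genes passed. At an unadjusted p under 0.05 in edgeR, 1 was higher and 1 lower in HET, against 2.02% and 3.19% of all genes. In 3 (3.95%) all HET libraries lay above all WT libraries and in 3 (3.95%) below, against 4.69% and 5.64% of all genes. The joint median log2 fold change of the 76 genes was 0.03, with 40 positive and 36 negative values. Mitoribosome proteins with other symbols (5 genes) had a median of -0.11. They included Dap3, a GTP-binding small subunit protein, at 85.1, 68.9 and 92.8 CPM in HET 1, 3 and 4, against 103, 89.8 and 74.2 CPM in WT 1, 3 and 4, and Ptcd3, an RNA-binding small subunit protein, with a log2 fold change of -0.12 ± 0.17 (SE). The list of 14 translation factors, which also holds Slirp, Lrpprc and Oxa1l although they are not translation factors, had a median of 0.01. Slirp, which stabilises mitochondrial messenger RNAs, measured 13.4, 13.3 and 13.1 CPM in HET and 11.01, 10.4 and 5.25 CPM in WT, with no overlap and an adjusted p of 0.995 in edgeR, and the ribosome recycling factor gene Gfm2 stood at a log2 fold change of 0.24 ± 0.19 (SE).

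The 16 mitochondrial tRNA synthetases had a median log2 fold change of 0.03. Cars2, the cysteine enzyme, measured 42.4, 56.5 and 55.0 CPM in HET 1, 3 and 4, against 39.9, 36.8 and 40.3 CPM in WT 1, 3 and 4. These did not overlap, with a log2 fold change of 0.39 ± 0.20 (standard error; adjusted p = 0.951 in edgeR). For 23 genes of ribosome assembly and ribosomal RNA modification the median was 0.08. Mrm1, an rRNA methyltransferase, measured 28.3, 20.5 and 16.8 CPM in HET and 40.4, 31.3 and 35.3 CPM in WT, without overlap, with a log2 fold change of -0.69 ± 0.25 (standard error; adjusted p = 0.659 in edgeR). Mterf4, which helps to target an rRNA methyltransferase to the large subunit, had 0.62 ± 0.30 (SE). The 18 tested genes of mitochondrial DNA maintenance and transcription had a median of 0.07. Polg2, the accessory subunit of the mitochondrial DNA polymerase, measured 35.6, 63.2 and 48.1 CPM in HET and 22.2, 24.9 and 36.7 CPM in WT, overlapping at HET 1, with a log2 fold change of 0.81 ± 0.25 (standard error; adjusted p = 0.406 in edgeR). Ppargc1a, a coactivator of mitochondrial biogenesis, was low, at 0.40, 3.71 and 3.12 CPM in HET and 4.33, 5.49 and 4.77 CPM in WT. All its HET libraries lay below its WT libraries, with a log2 fold change of -1.08 ± 0.74 (standard error; adjusted p = 0.995 in edgeR).

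**Figure D5:**
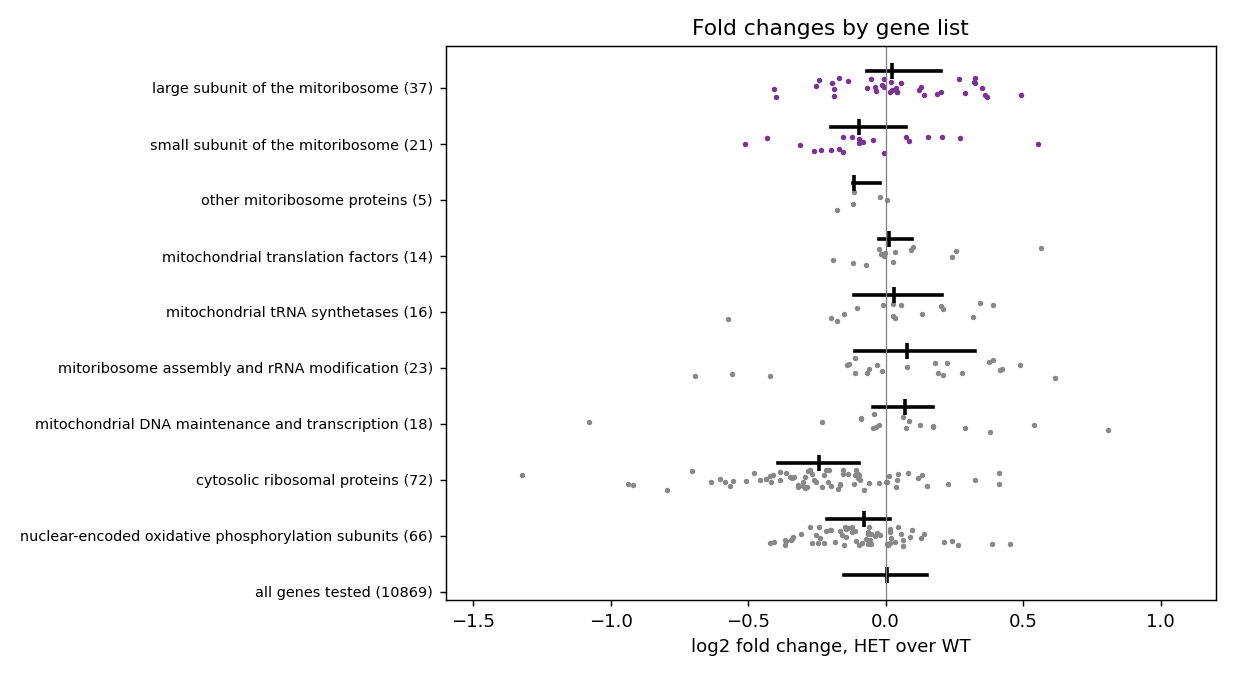
Log2 fold changes of HET over WT for the tested genes of each list (points), with the median (tick) and the interquartile range (bar) drawn above the points, and the number of genes in brackets. Both subunits of the mitochondrial ribosome and the lists for mitochondrial gene expression lie around 0, with medians from -0.11 to 0.08, and cytosolic ribosomal proteins have a median of -0.24.

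In the genome the members were scattered over 16 chromosomes. Genes starting on the opposite strand within 1000 bases upstream were annotated for 15 members (25.4%), against 15.1% of the 11775 genes of the table with an annotation. Among these pairs were Mrps12 with Sars2, the mitochondrial serine tRNA synthetase gene, and Mrpl49 with Fau, a cytosolic ribosomal protein gene. The exons of 19 members overlap those of another annotated gene, including the pair Mrps11 and Mrpl46, which overlap each other, so reads in the shared stretch of those genes may belong to either. Mrps11 measured 21.5, 17.2 and 12.7 CPM in HET 1, 3 and 4, against 18.2, 23.6 and 22.4 CPM in WT 1, 3 and 4, and Mrpl46 measured 24.3, 24.6 and 19.1 CPM in HET and 24.5, 20.1 and 14.3 CPM in WT. Neither passed, and their fold changes had opposite signs (log2 -0.31 and 0.20). Exonic length had a median of 2104 bases in the 58 tested members and 4585 over all genes tested.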

How the data were processed

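The authors deposited unnormalized RNA-seq counts, whole numbers for each gene in 6 libraries. Groups come from the genotype labels and library numbers from the titles. FastQC, STAR 2.5.2b, edgeR, limma and mm10 are named in the submitters' processing notes, with no role or order. For the read counter, annotation and strand setting the sources used here give nothing, and the protocol text attached to the samples describes other material and was not used. The lowest second-highest level of any gene in the table was 1.012 CPM, so low genes had been removed before deposit.

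Counts were fitted over the whole table with edgeR 4.0.16 in R 4.3.3: filterByExpr (which left 10869 of 11779 genes), TMM scaling, robust dispersions, group as the only term, the two-sided quasi-likelihood F test and Benjamini-Hochberg adjustment with a threshold of 0.05. Standard errors were derived from the F statistic. The biological coefficient of variation was 20.7%. List levels used log2 CPM with a prior count of 2. Positions and lengths come from GENCODE M21 (GRCm38) and promoters from RefSeq (GRCm38.p6). Oxidative phosphorylation and cytosolic ribosomal protein genes were taken by symbol, and 4 list genes were matched through another symbol. Roles and nomenclature of ribosomal proteins are background knowledge.

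The members, lists and tests were chosen with earlier results of these data known. Named members were those that did not overlap between groups, the 4 of smallest p in each direction, the 5 highest and 3 lowest per kb, and members fixed for their biology (Mrps18a, Mrps18b, Mrps30, Mrps36, Mrpl45, Mrps12), and in related lists the 2 of smallest p. One gene that this rule names is not reported here. Others, among them Mrpl2, Mrpl20, Mrpl36, Mrpl11, Mrpl38, Mrpl46 and Mrps11, were named after their values were seen. Mrpl12 and Mrps18c, named in the same rule, and the transcripts that mitoribosomes translate were not analysed here. In 5 simulations, counts were drawn from the mean levels, depths and dispersion trend of these libraries, with 200 genes changed 2- or 4-fold. There 4.15% of 820 calls were false, and 66.1% of 2-fold and 95.7% of 4-fold changes were recovered (a mean of 10728 genes tested). The spread of dispersion between genes of like level was left out. The recovered shares cover genes of all levels, with more genes called per fit than in the data, and do not give the share for these members. Alternatives were RLE and upper quartile scaling, other filters, DESeq2 1.42.0, limma-voom 3.58.1, the library number as a block, thinning of HET 1, removal of length and GC trends, a threshold of 0.1 and leaving out each library.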

Additional observations from a re-analysis of the deposited data

How the results depend on the processing

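The count of 0 members and 0 genes of the related lists held under all 15 alternatives, and the count of members also at an adjusted p of 0.1. The members' median log2 fold change ranged over -0.06 to 0.06 with 1 library omitted. The count over all genes was 59 with DESeq2, 43 with limma-voom and 49 with the library number as a replicate block, and with 1 library omitted ran from 10 (without HET 4) to 68 (without HET 1), with 11 without WT 1; the cause was not tested. Myc kept its direction, with log2 fold changes from -0.50 to -0.32 when 1 library was left out. Whether equally numbered libraries share more than a number is not stated. Their deviations correlated at 0.112, -0.04 and 0.07, which cannot show whether they were paired, and under the block 0 members were called.

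Of 298 refits of single named members, 277 kept their direction and 0 passed. The other 21 changed direction, and those members have no settled direction here. With length and GC trends removed, Mrpl34 had 0.0366, Mrpl52 0.0296 and Mrps12 0.11. Mrpl45 had 0.0050 and Mrps12 0.0037 with upper quartile scaling, Mrpl45 had 0.0014 with no filter, and Mrps12 had 0.0634 with limma-voom and 0.0542 with the replicate block. When 1 library was left out, the range was -0.0432 to 0.39 for Mrpl23, -0.0198 to 0.11 for Mrpl28, -0.12 to 0.17 for Mrpl45, -0.20 to 0.15 for Mrpl52, -0.53 to 0.0848 for Mrpl54 and -0.26 to 0.27 for Mrps12. Without a change of direction, it was 0.14 to 0.43 for Mrpl50, 0.14 to 0.47 for Mrpl40, -0.65 to -0.24 for Mrpl16, -0.57 to -0.22 for Mrps30, -0.38 to -0.10 for Mrpl9, -0.39 to -0.04 for Mrps18a, -0.36 to -0.02 for Mrps18b, -0.86 to -0.04 for Mrps33, -0.28 to -0.07 for Mrpl34, 0.23 to 0.46 for Mrpl21 and -0.68 to -0.32 for Mrps21. The intervals rest on 3 libraries a group, and how much of their width comes from depth was not tested.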
